A study of Mus musculus with 3 samples.

Results

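The Zfp genes of the mouse encode zinc finger proteins, and their promoters were examined here in the open chromatin of hematopoietic stem cells (HSCs). The members were the protein-coding genes of the GENCODE vM21 annotation on chromosomes 1 to 19 whose symbol is Zfp followed by a digit. There were 385 of them among 20807 protein-coding genes. A member was called clustered when the start of another member lay within 100 kb and single otherwise, which gave 212 clustered and 173 single members. The rule used names and positions only and no measured value.

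The data came from 1 preparation of bone marrow HSCs of 8-week-old wild-type mice, taken from the C57BL6/J strain and sorted from c-Kit-enriched marrow by the surface profile CD150+, CD48- and CD34- within lineage-negative cells positive for Sca-1 and c-Kit. They were profiled by DOGMA-seq, a method that reads open chromatin (ATAC), RNA and antibody tags from the same cells. Only the ATAC library is described here, and there was 1 of it, so no value has a replicate and no group of mice or treatment was compared. Of 3757 called cells, the 3108 (82.7%) with more than 3000 fragments in peaks were used. They held 37137164 unique fragments on chromosomes 1 to 19 and X, with a median of 11457 per cell and a range of 3977 to 194399. As a check of the label, genes of several cell types were listed. The lists were made with earlier results of these data known, so the check was not independent of them. The median was 354.5 fragments over the promoters of 10 HSC genes. It was 20 over 5 T cell genes, 50 over 5 neutrophil genes and 65 over 5 B cell genes. The other lists did not separate as clearly: 4 erythroid genes had a median of 307.5, from Hba-a1, a globin gene, at 4 to Epor, the erythropoietin receptor gene, at 566. The median was 284 for 5 stromal and endothelial genes, from Lepr, the leptin receptor gene, at 27 to Col1a1, a collagen gene, at 638. None of these genes was at 0. Single genes did not all follow their list: of the 10 HSC genes 5 were above the median promoter of 346 fragments, from Mecom at 11 and Ly6a, which encodes Sca-1, at 52 to Hlf at 1846. The B cell genes ran from Ms4a1 at 11 to Vpreb1 at 694. At the coding start with the most fragments Mecom had 2674, but Pax5, a B cell gene with 125 at the gene start, had 1370, and Cd3d, a T cell gene with 35, had 1340.

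Most Zfp proteins bind DNA through tandem C2H2 fingers, short loops that each hold a zinc ion between a pair of cysteines and a pair of histidines. Many also carry a KRAB domain, which recruits the corepressor Trim28 (KAP1) and, through it, enzymes that write repressive histone marks over retroelements. The family grew by repeated tandem duplication, so many members lie side by side on a chromosome, and neighbors often share long stretches of sequence. A minority of genes under the same symbol work differently, among them the CCCH genes that bind mRNA and speed its decay.

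The sequences that best show the contrasts described below are the stretches just before the RefSeq start of 7 members. They are written 5′ to 3′ on the strand of the gene, without annotated exon bases, and in coordinates of mm10 (GRCm38). All are credited to RefSeq. The first 4 come from open promoters and the next from a nearly closed one, with each CpG dinucleotide in capitals. Zfp143, which activates small RNA and protein-coding promoters, led the members and is shown from chr7:110061555-110061701 (plus strand), which lies before its RefSeq start but after the GENCODE start around which its fragments were counted. Zfp687 ranked next and is shown from chr3:95015458-95015607 (minus strand). Zfp78, the leading clustered member, is shown from chr7:6363158-6363279 (plus strand). Zfp809, a KRAB gene that silences retroviruses in embryonic cells, is shown from chr9:22225553-22225702 (plus strand). Zfp42 (Rex1), a marker of pluripotent cells, is shown from chr8:43307010-43307159 (minus strand).
Zfp143: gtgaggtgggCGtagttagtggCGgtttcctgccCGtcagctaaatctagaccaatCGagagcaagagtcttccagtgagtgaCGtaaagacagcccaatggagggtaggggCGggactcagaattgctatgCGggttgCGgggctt
Zfp687: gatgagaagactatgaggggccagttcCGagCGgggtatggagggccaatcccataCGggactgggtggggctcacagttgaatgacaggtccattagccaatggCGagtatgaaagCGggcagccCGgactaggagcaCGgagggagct
Zfp78: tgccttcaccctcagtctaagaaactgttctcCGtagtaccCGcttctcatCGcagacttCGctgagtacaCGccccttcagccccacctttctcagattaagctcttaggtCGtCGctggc
Zfp809: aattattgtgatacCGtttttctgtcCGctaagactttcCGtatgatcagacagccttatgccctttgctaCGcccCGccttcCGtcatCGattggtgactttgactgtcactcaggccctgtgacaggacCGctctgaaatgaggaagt
Zfp42: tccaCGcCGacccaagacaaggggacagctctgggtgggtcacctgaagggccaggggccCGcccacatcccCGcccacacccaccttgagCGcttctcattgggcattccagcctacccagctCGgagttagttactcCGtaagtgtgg
The stretch of Zfp143 held 8 CpG dinucleotides and the 150 bases of Zfp809 also 8, against 7 in the 150 bases of Zfp42. The bases printed for Zfp42 thus held about as many CpG dinucleotides as those of the open members.

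The last pair shows how alike the promoters of some members are. Zfp965 at chr2:175469875-175469984 and Zfp973 at chr2:176670372-176670521, both on the plus strand, are separate genes of chromosome 2. The capitals mark the longest stretch shared within the bases printed here, which is 110 bases long.
Zfp965: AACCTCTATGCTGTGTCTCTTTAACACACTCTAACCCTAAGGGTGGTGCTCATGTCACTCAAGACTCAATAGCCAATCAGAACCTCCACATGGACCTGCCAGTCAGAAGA
Zfp973: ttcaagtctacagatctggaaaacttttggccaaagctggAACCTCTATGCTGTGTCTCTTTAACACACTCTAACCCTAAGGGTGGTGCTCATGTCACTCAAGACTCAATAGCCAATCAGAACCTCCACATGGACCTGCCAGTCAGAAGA
All 110 bases shown for Zfp965 also stand before the start of Zfp973. Both genes had 0 fragments, which allows up to 3 by counting error (one-sided limit). No stretch of 50 bases in either window was unique in the genome. The limit therefore covers counting only and is no bound on how open these windows are.

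A promoter was scored by the number of fragments that overlapped its start ± 1000 bp, summed over the 3108 cells. It was called closed when that number was at or under 15, the 95th percentile of 264806 windows of the same length lying more than 50 kb from any annotated transcript start. The median of those distal windows was 2 fragments. The median of all 20807 promoters was 346 fragments. The intervals given below are exact 95% Poisson or Clopper-Pearson intervals, and they cover counting error only. Genes are not replicates, so no test was made between groups of them.

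A smaller share of Zfp promoters than of protein-coding promoters as a whole was closed. Of 385 members, 49 (12.7%, interval 9.57 to 16.5) were closed, against 23.9% of all promoters. A further 226 members (58.7%, interval 53.6 to 63.7) lay above the median promoter, against 50.0%. In addition, 29 (7.53%) reached the top 10% of promoters, which began above 2266 fragments, against 10.0%. The median member had 452 fragments, with quartiles of 130 and 1089 and a range of 0 to 6364. The median share of cells with a fragment was 12.2%. For 23 members a fragment was found in more than 50% of cells, and for 58 in fewer than 1%.

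Other gene families gave the scale. The 1128 olfactory receptor genes, which blood cells do not use, had a median of 2 fragments, and 97.5% of them were closed. Ribosomal protein genes, needed in every cell, had a median of 1513 over 84 genes, with 9.52% closed. Zinc finger genes under other symbols spread on both sides of the Zfp members. The median was 2917.5 over 16 Klf genes, 1187.5 over 40 Zbtb genes, 362 over 11 Zkscan genes and 44 over 19 Zscan genes. None of the Klf, Zbtb and Zkscan genes were closed, against 9 of the 19 Zscan genes.

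Clustered members had a lower median of fragments than single ones, whereas the order of their closed shares depended on the distance that defines a cluster. The median was 363 fragments in the 212 clustered members, with quartiles of 126.8 and 735.5. In the 173 single members the median was 801, with quartiles of 152 and 1451. The ratio of clustered to single medians was 0.453, and the quartile ranges overlapped. Of the clustered members 25 (11.8%, interval 7.78 to 16.9) were closed, and of the single members 24 (13.9%, interval 9.10 to 19.9). With a distance of 50 kb the closed shares were 6.55% of 168 clustered and 17.5% of 217 single members. With 200 kb the order turned, to 14.5% of 241 clustered and 9.72% of 144 single members. The groups parted at the top: 6 clustered members (2.83%) and 23 single members (13.3%) were in the top 10% of promoters. Clustered members gave 38.6% of the 305738 fragments summed over member windows.

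**Figure D1:**
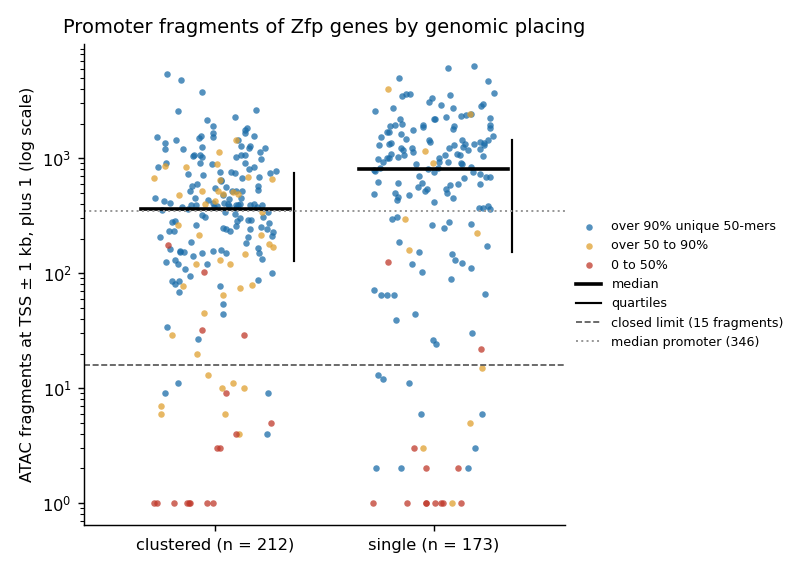
ATAC fragments at the start ± 1 kb of each member (log axis, 1 added so that 0 can be drawn), for 212 clustered and 173 single members, each point 1 gene colored by the share of 50-base words in its window that occur once in the genome. Thick bars are medians (363 and 801 fragments), thin vertical bars quartiles, and the lines mark the closed limit of 15 and the median promoter of 346. The points at the bottom, with 0 fragments, are of low or middle uniqueness.

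The 10 leading members were Zfp143, Zfp687, Zfp78, Zfp438, Zfp524, Zfp91, Zfp36l2, Zfp868, Zfp319 and Zfp654. Zfp143 had 6364 fragments (interval 6208.6 to 6522.3), 18.4 times the median promoter, and at least 1 fragment in 84.5% of cells. Zfp687 followed with 6051 (5899.5 to 6205.4) and Zfp78 with 5428 (5284.5 to 5574.4). The intervals of these first 3 did not overlap. Next came Zfp438 with 4984, Zfp524 with 4768 and Zfp91, a ubiquitin ligase gene of the NF-kB pathway, with 4689. Neighbors in the order from Zfp438 to Zfp91 differed by less than their counting intervals. Zfp36l2 had 4030 fragments, Zfp868 3738, Zfp319 3717 and Zfp654 3622, and the last 3 of these did not differ beyond counting error. Zfp78, Zfp524 and Zfp868 are clustered and the other 7 single. These 10 genes held 15.5% of all fragments over member windows.

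Some leading windows belong to more than 1 gene. The window of Zfp524 overlapped that of Fiz1, whose start lies 282 bp away, and that of Zfp91 overlapped the window of Lpxn, 67 bp away. Zfp319 shared its window with Usb1 at 334 bp and Zfp654 with Cggbp1 at 344 bp. In such windows the fragments of both genes cannot be told apart. In all, 47 members (12.2%) shared a window with another protein-coding gene, against 14.6% of all genes, and their median was 1029 fragments against 401 for the other 338 members. Clustered members that shared no window had a median of 313 and single ones 718. In 10 cases the partner was itself a member, as for Zfp944 and Zfp758, whose starts lie 53 bp apart and whose windows held 486 fragments each.

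**Figure D2:**
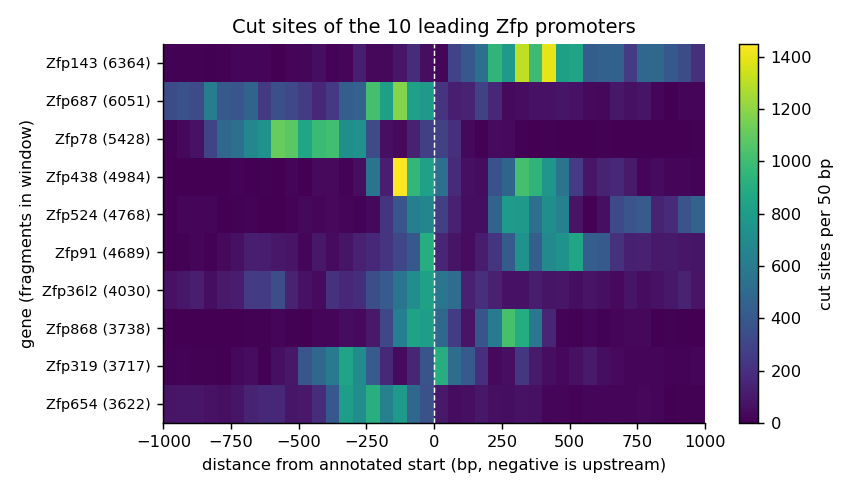
Cut sites (fragment ends) per 50 bp from 1000 bp before to 1000 bp after the annotated start of the 10 leading members, with the number of fragments in the window beside each name and the start as a dashed line. The strongest bin lies at -25 bp in Zfp91 and Zfp36l2, at -575 bp in Zfp78 and at 425 bp in Zfp143.

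The place of the open stretch differed among these leaders. In Zfp91 and Zfp36l2 the 50-bp bin with the most cut sites was centered 25 bp before the start, and in Zfp687 and Zfp438 it lay 125 bp before it. In Zfp78 it lay 575 bp upstream, with 1111 cut sites there and 277 in the bin just before the start. In Zfp143 it lay 425 bp downstream, with 1395 cut sites, and the RefSeq start of that gene is 485 bp downstream of the GENCODE one. Over the 303 members with at least 100 fragments, the strongest bin was within 250 bp of the start in 246 (81.2%), and the median position was 25 bp upstream. The share was 81.3% for clustered and 81.0% for single members, so the position did not part the groups. Of the 385 members 319 were in the RefSeq promoter table, and for 260 of these the nearest RefSeq start was within 100 bp.

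The mean profile peaked just before the start in both groups, and clustered members were lower at the peak and more so in the flanks. Single members reached 80.7 cut sites per gene per 20 bp at 30 bp before the start, and clustered members 54.6 at 50 bp before it. Other protein-coding genes reached 62.5. Beyond 1500 bp from the start the mean was 2.66 in single and 0.571 in clustered members, against 1.66 in other genes. Short fragments, below the length of DNA that a nucleosome wraps, made up a median of 45.8% in clustered members and 51.2% in single ones, among those with 100 or more fragments.

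**Figure D3:**
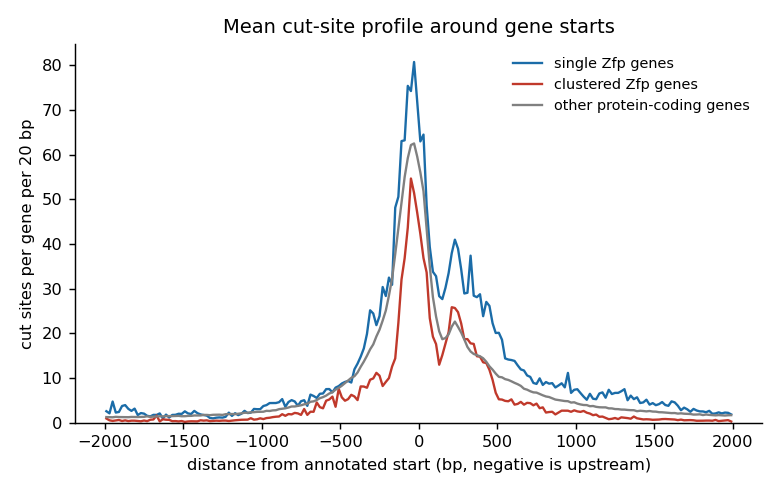
Mean cut sites per gene per 20 bp from 2000 bp before to 2000 bp after the annotated start, for single Zfp members, clustered Zfp members and all other protein-coding genes. All 3 lines peak 30 to 50 bp before the start and have a second rise after it. The line of single members is highest at its peak, at 80.7, and that of clustered members lowest, at 54.6.

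Promoters rich in CpG had more fragments. CpG dinucleotides are rare in the mouse genome except in CpG islands, and their number over that expected from the base content (CpG observed over expected) had a Spearman rho of 0.71 with the fragments over the 385 members. Over all 20807 promoters the rho was 0.81. These are correlations across genes within 1 library and are given as a description. The median CpG value was 0.441 in clustered members and 0.553 in single ones. All promoters were split into 3 equal parts by CpG value, at 0.288 and 0.612. In the CpG-rich part the median was 838.5 fragments for 34 clustered and 1494 for 66 single members, and 0 of these 100 were closed, which allows a share of up to 3.62%, against 0.519% of all CpG-rich promoters. In the middle part it was 367.5 for 144 clustered and 597 for 83 single members. Of these members 8.37% were closed, against 9.08% of all promoters of that part. By group this was 4.86% of the clustered (interval 1.98 to 9.76) and 14.5% of the single members (7.70 to 23.9). In the CpG-poor part the median was 10 for 34 clustered and 13 for 24 single members. There 18 and 12 were closed, together 51.7%, against 62.0% of all CpG-poor promoters. Taken over both groups together, the closed shares of the CpG-rich and middle parts were thus near those of all promoters. At the gene start clustered members had the lower median in each part, by little in the CpG-poor one, where the order turned at the best coding start (74.5 for clustered and 36 for single members).

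**Figure D4:**
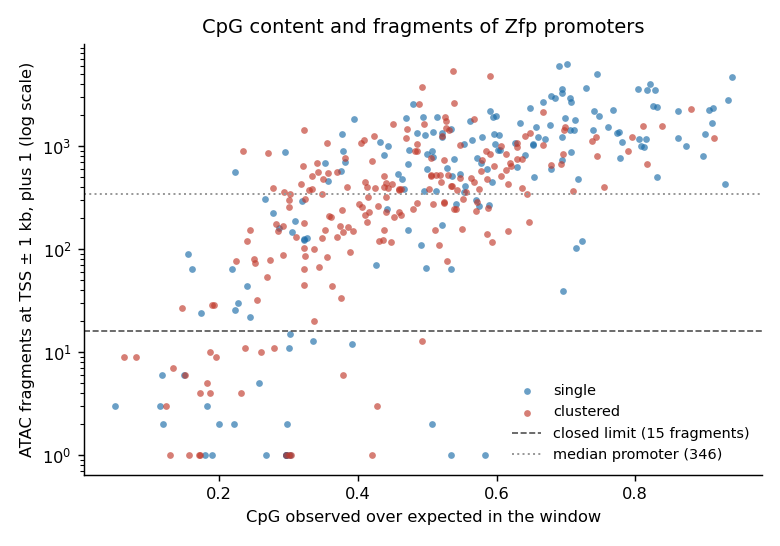
CpG observed over expected in the window (horizontal axis) and ATAC fragments at the start ± 1 kb plus 1 (log vertical axis) for each of the 385 members, single and clustered in different colors. The lines mark the closed limit of 15 fragments and the median promoter of 346. Members with more CpG had more fragments (Spearman rho 0.71), and 0 of the 100 members with a CpG value above 0.612 were closed, against 0.519% of all such promoters.

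The closed members fall into kinds, which overlap in part. Reads whose bases occur more than once in the genome are harder to place, although a mate can help, and the share of 50-base words (50-mers) in each window that do so was counted on the reference. Of the 49 closed members, 24 had windows in which at most 50% of 50-mers were unique, 12 lay between 50% and 90%, and 13 had more than 90%. Of the 302 members with more than 90% unique 50-mers 13 (4.30%) were closed, against 17.7% of all promoters with such windows. Of the 83 members at or under 90% 36 (43.4%) were closed, against 69.7% of all such promoters. Among the more unique windows 4 of 153 clustered members (2.61%) and 9 of 149 single ones (6.04%) were closed, with medians of 396 and 927 fragments. How much of the closed calls comes from reads that could not be placed was not tested.

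The 17 members with 0 fragments included the 7 in whose window no 50-mer was unique, Zfp965, Zfp966, Zfp967, Zfp968, Zfp969 and Zfp973 on chromosome 2 and Zfp781. The 14 members with under 10% unique 50-mers had 0 to 2 fragments. The 6 on chromosome 2 carried only 4 different 300-base promoters, and any pair of them shared an unbroken stretch of at least 194 bases. The other members with 0 fragments were Zfp433, Zfp534, Zfp600, Zfp955a, Zfp97, Zfp978, Zfp979, Zfp980, Zfp990 and Zfp993. These 17 genes share the lowest rank.

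Members with windows of low uniqueness lay together in 3 stretches, though others, such as Zfp781 on chromosome 10, stood outside them. On chromosome 4, all 15 members between chr4:145670685-147702553 were closed, from 0 in Zfp980 to 10 fragments in Zfp982, and the median share of unique 50-mers was 21.1%. On chromosome 2, 6 of the 10 members between chr2:175372436-178078476 were closed. The other 4 there were Zfp970 with 21 fragments, Zfp972 with 28, Zfp931 with 31 and Zfp971 with 176, and Zfp971 had the largest share of unique 50-mers, 42.4%. On chromosome 13, between chr13:62129886-62571199, Zfp934 had 3 fragments, Zfp935 101 and Zfp808 125, at 37.6% to 38.5% unique 50-mers. Windows of like uniqueness on that stretch therefore stood on both sides of the closed limit.

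A second kind was closed only at the outermost annotated start. Of the 13 closed members with more than 90% unique 50-mers, 7 passed the limit at another start of a coding transcript. Zfp708 had 10 fragments at the gene start and 334 at its best start, Zfp558 5 and 228, Zfp607a 8 and 214, and Zfp385b 5 and 135. Zfp111 had 3 and 122, Zfp759 8 and 117, and Zfp791 1 and 67. Over closed members of any uniqueness, 11 passed the limit at another coding start. Zfp934, Zfp738, Zfp229 and Zfp37, with less unique windows, were among these 11, with 5 and 195 fragments in Zfp738 and 14 and 146 in Zfp37. The same held beyond the closed members. Of all 385, 24 had at least 2 times as many fragments at another coding start, counting those with 100 or more there. Zfp217, a transcriptional repressor amplified in some tumors, had 70 fragments at the gene start and 2372 at its best start, Zfp473 23 and 1998, and Zfp467 846 and 3985. With the best coding start of every gene, 38 members (9.87%) were closed, against 22.1% of all promoters.

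The 6 remaining closed members had unique windows and no open coding start, and all 6 are single. Zfp42 had 1 fragment, in 1 cell, and Zfp735 also had 1. Zfp616 had 2, Zfp474 10, Zfp488 11 and Zfp750 12. Zfp488 is a gene of oligodendrocyte development and Zfp750 one of epidermal differentiation. Their CpG values ran from 0.0499 in Zfp616 to 0.507 in Zfp42, so Zfp42 was closed at a CpG value above the median member's, 0.497. At the limit itself, the last closed members were Zfp708, Zfp474 and Zfp982, tied at 10 fragments, Zfp488 with 11, Zfp229 and Zfp750 with 12 and Zfp37 with 14. The first above it were Zfp869 with 19, Zfp970 with 21, Zfp473 with 23, Zfp957 with 25 and Zfp119b with 26.

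The members were grouped by known role to see where each stood. These role lists were chosen with earlier results of these data known. The 3 CCCH genes, whose proteins bind AU-rich elements of mRNAs and promote their decay, were all far above the median promoter. Zfp36l2 had 4030 fragments, Zfp36l1 3605 and Zfp36 (tristetraprolin) 2588. In Zfp36 the strongest bin lay at 975 bp, at the edge of the window.

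The 6 listed genes with roles in blood cells, a choice and not the whole class, were above the median promoter, with a median of 2086 fragments. Zfp318, a gene needed for IgD expression in B cells, had 2840. Zfp335, needed for T cell maturation, had 2712 and Zfp521, a regulator of stem and progenitor cells, 2339. Zfp385a (Hzf) had 1833 and Zfp410, an activator of the NuRD subunit Chd4, 1058. Zfp423, the paralog of Zfp521 and a gene of early B cell and fat cell differentiation, was lowest with 498. Its CpG value was 0.832, close to the 0.912 of Zfp521, so this paralog pair differed in fragments at a like CpG content.

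Of 11 listed genes with general roles in transcription, RNA or protein turnover, 10 were above the median promoter at the gene start. Besides Zfp143 and Zfp91 they were Zfp598, a ubiquitin ligase gene for stalled ribosomes, with 2940 fragments and Zfp384, rearranged in some human B cell leukemias, with 2928. Zfp207 (BuGZ), a mitotic spindle gene, had 1880, Zfp148 1391, Zfp622, a ribosome assembly gene, 1165 and Zfp281, a factor of pluripotent cells, 1009. Zfp451, a SUMO ligase gene, had 734 and Zfp106, an RNA-binding protein gene, 452. Zfp217 was below at its gene start and above at its best start. A list of 7 genes known from other tissues, which leaves out others such as Zfp488, held none above the median promoter at the gene start, where their median was 65 fragments, and 2 of them, Zfp42 and Zfp750, were closed. Zfp462 had 275, Zfp536, a neural gene, 120, Zfp804a 101, Zfp804b 65 and Zfp541, a testis gene, 38. Zfp541, Zfp536 and Zfp804a were low at CpG values of 0.696 to 0.723, a range in which 94 of 100 members and 89.9% of all promoters, those with a CpG value above 0.612, were above the median promoter. At their best starts Zfp462 had 437 and Zfp536 390 fragments.

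The 5 KRAB genes with known targets were spread over the range. Zfp809 had 1916 fragments, Zfp445, which with Zfp57 keeps methylation at imprinted genes, 410 and Zfp568, a repressor of a placental Igf2 promoter, 396. Zfp932, a repressor of retroelements, had 294 at 72.2% unique 50-mers, and Zfp57 had 63 at the gene start and 305 at its best start. A KRAB-like string was found in the proteins of 169 C2H2 members and not in 199, by a search that missed at least Zfp57, so these counts are approximate. It found the string in 0 of the 10 members of the run Zfp180 to Zfp94 and 0 of the 8 of the run Zfp607b to Zfp850. Given the misses, this does not show that their proteins lack the domain. All members of these runs are counted below as without the string, so the medians by string are approximate too. Members with the string had a median of 361 fragments, with 27 of 169 closed and 1 (0.592%) in the top 10% of promoters. Members without it had a median of 702, with 17 of 199 closed and 25 (12.6%) in the top 10%. Both closed counts are lower shares than the 23.9% of all promoters. The difference in medians was present among single members, 510 against 1029, and small among clustered ones, 341 against 389. The string moved with CpG content, 0.420 with it and 0.568 without, and with the number of fingers.

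Members with few fingers stood higher. The median was 1029 fragments over 71 members with 1 to 5 C2H2 fingers, 519.5 over 110 with 6 to 10, 308 over 122 with 11 to 15 and 389 over 65 with 16 or more. The median CpG value of the same groups was 0.641, 0.506, 0.444 and 0.449. In 17 members no C2H2 finger was found, the CCCH genes included, and their median was 173.

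The genes of the KRAB corepressor pathway were read from a list of 19, also chosen with earlier results known. At the gene start 15 were above the median promoter, against 50.0% of all promoters, and 2 were closed, against 23.9%. At the best coding start 0 were closed, against 22.1% of all promoters. Trim28, the corepressor itself, had 5 fragments at the outermost start of its record and 2059 at its best start, and Atf7ip, a partner of the histone methyltransferase Setdb1, had 7 and 2231. Setdb1 had 273 at both. The genes of heterochromatin protein 1 were Cbx3 with 5775 fragments, Cbx5 with 3928 and Cbx1 with 582. Of the HUSH complex, which silences retroelements, Mphosph8 had 2274, Fam208a 1729 and Pphln1 1282. Among DNA methylation genes Dnmt1 had 25 at the gene start and 2837 at the best start, Dnmt3a 1704 and 2742, Dnmt3b 902 and 914 and Uhrf1 1807 and 1883. The deacetylase genes Hdac1 and Hdac2 had 2242 and 2027, and the remodeler genes Chd4 1262, Smarcad1 1064 and Chd3 571. Morc3 had 3011.

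Clusters of members spanned a wide range of openness. The 212 clustered members formed 52 runs, chains in which each start lay within 100 kb of the next, and the 13 runs of 5 or more members had medians from 93 to 1258 fragments. The largest, Zfp712 to Zfp273 on chromosome 13, had 23 members with a median of 204 fragments, from 5 in Zfp738 to 766 in Zfp87, and 3 were closed. The run Zfp84 to Zfp146 on chromosome 7 had 15 members, of which 0 were closed, with a median of 396 and a range from 153 in Zfp383 to 1486 in Zfp566. The run Zfp180 to Zfp94, also on chromosome 7, had 10 members with a median of 93. Its first gene, Zfp180, had 1452 fragments and its lowest, Zfp111, 3, and Zfp180 alone was above the median promoter.

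At the other end, the run Zfp786 to Zfp746 on chromosome 6 had 7 members with a median of 1209, and all 7 were above the median promoter, from 833 in Zfp282 to 2306 in Zfp746. The run Zfp628 to Zfp580 on chromosome 7 had a median of 1258 over 6 members, from 387 in Zfp580 to 4768 in Zfp524. The ranges of the chromosome 6 run and of the run around Zfp712 did not overlap, as 833 was above the 766 of Zfp87. The median CpG values of these runs were 0.641 and 0.324. Window uniqueness was also higher in the first, with a median of 100% against 95.3%.

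The 8 other runs lay between. Zfp768 to Zfp689 on chromosome 7 had a median of 1015, from 477 in Zfp764 to 1536 in Zfp768. Zfp868 to Zfp866 on chromosome 8 had a median of 905, from 19 in Zfp869 to 3738 in Zfp868. Zfp560 to Zfp846 on chromosome 9 had a median of 746, from 376 in Zfp26 to 1066 in Zfp426, and Zfp329 to Zfp446 on chromosome 7 a median of 716, from 383 in Zfp324 to 2563 in Zfp446. Of the runs on chromosome 17, Zfp871 to Zfp563 had a median of 421, from 53 in Zfp811 to 1068 in Zfp870. Zfp677 to Zfp229 had 302, from 12 in Zfp229 to 1075 in Zfp51, and all 9 of its genes lie on the plus strand. Zfp607b to Zfp850 on chromosome 7 had 151.5, from 6 in Zfp626 to 1268 in Zfp607b. Zfp354c to Zfp354b on chromosome 11 had 150, from 33 in Zfp454 to 430 in Zfp2. The 28 other protein-coding genes inside the 13 runs had a median of 358 fragments, near the 387 of the 111 members there.

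**Figure D5:**
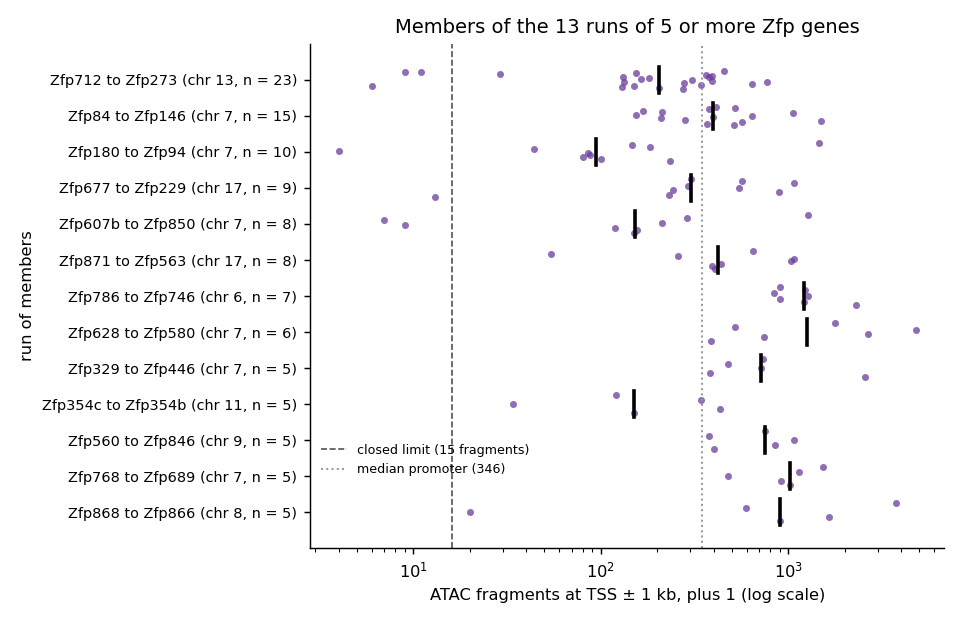
ATAC fragments at the start ± 1 kb plus 1 (log horizontal axis) of each member in the 13 runs of 5 or more members, 1 row per run with its chromosome and number of members. Points are genes, black bars the median of the run, and the lines the closed limit of 15 and the median promoter of 346. Medians run from 93 in the run Zfp180 to Zfp94 to 1258 in the run Zfp628 to Zfp580.

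Clustered members were also grouped by their number of neighbors. Of 60 members with 1 other member within 100 kb 14 (23.3%) were closed, near the 23.9% of all promoters, with a median of 239.5. Of 118 with 2 to 4 others 9 (7.63%) were closed, with a median of 403, and of 34 with 5 or more others 2 (5.88%), with a median of 244. The share with more than 90% unique 50-mers was 53.3%, 77.1% and 88.2% in these groups.

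Short letter strings known from promoters were counted from 250 bases before to 50 after the start, on both strands, as a description of the sequence and not of binding. CCGGAA, the core of ETS family sites, stood in 132 members (34.3%), against 17.9% of all promoters. The share was 36.3% in clustered and 31.8% in single members. CCAAT (NFY) stood in 44.9% of members against 38.6% of promoters, ATGGCG (YY1) in 14.3% against 10.4%, TGCGCA (NRF1) in 12.7% against 9.42% and TGACGT (CRE) in 11.4% against 8.63%. The TATA box string, TATAAA, stood in 7.53% against 12.7%. GGGCGG (SP/KLF) stood in 41.0% against 43.7%, with 32.5% in clustered and 51.4% in single members, and CACGTG (E-box) in 7.79% against 7.82%. Members with CCGGAA had a median of 522 fragments and those without 410, whereas over all promoters the medians were 972 and 217. The strings overlap in part with CpG content, since several hold a CG.

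Cells of different depth gave members a similar share of their fragments. With cells split into 3 equal groups by fragments, member windows held 0.848% of fragments in the shallowest, 0.840% in the middle and 0.800% in the deepest group. The median depth of these groups ran from 8119 to 14574.5 fragments per cell.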

How the data were processed

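HSCs of 1 preparation were profiled by DOGMA-seq, and the ATAC library was used here. The authors processed the reads with Cell Ranger ARC 2.0.2 and its mm10 reference, version 2020-A (names and versions from the file headers), a pipeline that merges duplicates and uses both modalities to call cells. The deposited files give each fragment's position with its count of read pairs, and counts of fragments for every barcode, without normalization. The deposited antibody counts were not used, nor was RNA. Fragment ends were taken as deposited, and the sources used here do not say whether they carry the pipeline's default shift for the transposase. No doublets were removed.

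Fragment starts were moved to 1-based positions. Fragments of called cells with more than 3000 fragments in peaks were counted where they overlapped the 5′ end of a GENCODE vM21 gene record ± 1000 bp, each counted once per window. Neither fragments nor genes ended beyond a chromosome of GRCm38. Base content, unique 50-mers, letter strings and translated coding sequences were read from GRCm38.p6. The KRAB-like string and C2H2 fingers were regular expressions on those translations. Scripts ran in Python 3.11.15 (scipy 1.17.1, numpy 2.4.6, numba 0.67.0, pandas 2.3.3), with plots from matplotlib 3.10.9. The counter was tested on simulated data. At this depth of 37137164 fragments a window with 0 fragments allows up to 3 (one-sided limit), and precision is given as exact two-sided 95% intervals for counting error. With 1 library no test between conditions was possible.

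The members, gene lists and named genes were chosen with earlier results of these data known. The named genes are the 10 members with the most fragments and those with the fewest, where 17 tied at 0. Next are the 5 on each side of the closed limit, with ties, and the lowest and highest of each run of 5 or more. A list of corepressor genes and members with a known role complete them. Closed members of each kind, members of the repeated stretches, members with a higher start and a pair with a shared window were also named after their values were seen. Alternatives to the window, start, limit, cells and cluster distance were tried.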

Additional observations from a re-analysis of the deposited data

Results flagged for a closer look

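Signal over Zfp promoters was also present in data left out of the comparisons. Barcodes not called as cells held 16444 fragments over the member windows, which was 0.466% of their 3525361 fragments on chromosomes 1 to 19 and X. In the cells used the share was 0.823%, with 305738 fragments. The 9 Zfp genes of chromosome X, which the naming rule leaves out, held 2045 fragments, from 6 in Zfp36l3, a CCCH gene, to 448 in Zfp711. Zfp36l3 was thus the only one of the 9 at or under 15 fragments, at 100% unique 50-mers and a CpG value of 0.437.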

How the results depend on the processing

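There were 19 alternative settings, of which 5 to 19 applied to a given result. The ratio of clustered to single medians stayed below 1 in each it was run under, but the order of the closed shares turned with clusters defined within 200 kb (14.5% of clustered and 9.72% of single members). The share of closed members kept within 9.87% to 14.2% under 10 of them, and the ratio of clustered to single medians within 0.369 to 0.565 under 16. With the limit at the 99th percentile of distal windows, 18.2% of members and 17.0% of clustered members were closed. With the limit at the median distal window these were 7.01% and 4.72%. The shares of all promoters under these other limits are not given here, and the 23.9% holds only for the limit of 15. With only windows over 90% unique the closed shares were 4.30% of all, 2.61% of clustered and 6.04% of single members. Without the 3 repeated stretches, chosen after seeing the data, they were 7.56% of all and 6.15% of clustered members. With unique windows and the best coding start together, also chosen after seeing the data, they were 1.99%, 0% and 4.03%, the 0 being of 153 members. The larger share over all promoters with such windows is given in the Results, with the best coding starts. With a window of ± 2000 bp 53.5% of members lay above the median promoter. With clusters defined within 50 kb, 6.55% of 168 clustered and 17.5% of 217 single members were closed and the ratio of medians was 0.694. The cause of these shifts was not tested. Of the 10 leading members, 6 stayed when shared windows were left out. No paired analysis was possible because there is 1 ATAC library and no result comes from a test.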
